A study of Homo sapiens with 6 samples.

Results

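The ETS transcription factors examined here are 10 of the 58721 genes counted by RNA sequencing in A375 cells, a human melanoma line with a mutant BRAF gene. They were chosen by name and matched to the Ensembl identifiers of the count table: ETS1, ETS2, ETV1, ETV4, ETV5, ELK3, ELK1, FLI1, ERG and ELF1. There were 3 SOX10 knockout libraries, from cells with a guide RNA against SOX10, and 3 control libraries, labelled wild type, from cells with a guide RNA against mCherry, which is not a human gene. All cells were A375 grown in DMEM with fetal bovine serum. The labels do not tell a pool of edited cells from a clone. They do not say either whether the replicates were grown apart, so the p-values cover the spread among these 6 libraries and no more, and that spread may be technical.

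ETS factors share a DNA-binding domain, the ETS domain, that recognises a core of GGA followed by A or T. Many are switched on or off by ERK, the last kinase of the RAS-RAF-MEK-ERK cascade that mutant BRAF keeps active in melanoma. The PEA3 group, ETV1, ETV4 and ETV5, is itself induced at the RNA level when ERK is active, in part because ERK relieves repression by CIC. ELK1, ELK3 and ELK4 are ternary complex factors, which bind beside the serum response factor SRF at immediate early genes. ETS1 and ETS2 are phosphorylated by ERK, ERG and FLI1 are best known in endothelial and blood cells, and ELF1 belongs to a separate branch.

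Counts summed to 70075002 to 78148565 in knockout libraries and to 71793584 to 74970700 in control libraries, so 3 counts, taken as the floor, stood at 0.0383 to 0.0417 CPM, the count scaled to a common library total; floors cover counting error only. SOX10 itself had 47.2, 47.8 and 41.5 CPM in knockout libraries, against 241, 237 and 223 CPM in control libraries. The label of a melanoma line was set against 9 melanocytic markers besides SOX10, of which 8 were tested. Of these 2 rose and 4 fell, where 28.0% of all tested genes were called. The sum of the 9 was 142 to 148 CPM in knockout libraries and 188 to 209 CPM in control libraries. TYR, the pigment enzyme tyrosinase, had 0 counts in every knockout library and at most 1 count in a control library. MITF, the master regulator of melanocytes, averaged 138 CPM in knockout libraries and 57.5 CPM in control libraries. MITF thus made up most of the knockout sum, which hides the falls of CDH19 and S100B given below. Values below are CPM on TMM-scaled library sizes, means are given ± SD over n = 3 libraries, and log2 fold changes are of knockout over control with their standard error (SE). In bulk RNA, fewer cells that express a gene and less RNA per cell cannot be told apart.

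The PEA3 genes are close relatives, and the stretch in which ETV4 and ETV5 are most alike shows how far their reads can be told apart. The 60 coding bases around it, from GENCODE release 29 transcripts on GRCh38 and within the part that encodes the ETS domain, are printed with the 45 positions that are identical in all 3 genes in capitals. Positions count from the first base of the start codon.
ETV1, bases 1151 to 1210: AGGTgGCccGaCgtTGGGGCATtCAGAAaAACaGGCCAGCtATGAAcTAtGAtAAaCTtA
ETV4, bases 1127 to 1186: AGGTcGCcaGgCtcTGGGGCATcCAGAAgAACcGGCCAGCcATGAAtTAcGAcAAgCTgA
ETV5, bases 1208 to 1267: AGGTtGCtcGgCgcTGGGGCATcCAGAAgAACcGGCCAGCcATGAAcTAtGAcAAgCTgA
In this window ETV5 matched ETV4 at 54 of 60 bases and ETV1 matched it at 46. The longest run of identical coding bases was 33 for ETV4 and ETV5, 17 for ETV1 and ETV4 and 18 for ETV1 and ETV5. No run of 50 bases was shared between any pair of the 10 genes. Of the 50-base runs in their transcripts, between 0% (ETS2, ETV1 and ERG) and 3.41% (ELK3) also occurred in a transcript of some other gene.

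Of the 10 factors, 9 passed the filter on low counts and were tested. The adjusted p fell below 0.05 for 6 of them: ETV4, ETV5, ELK3 and FLI1 were lower in knockout libraries, and ELF1 and ETV1 were higher. Over all 19263 tested genes 28.0% passed that threshold (14.0% higher and 14.0% lower). The knockout libraries lay wholly above the control libraries for 3 of the 9 factors and wholly below them for 4, and 41.6% of all tested genes had groups that did not overlap. The median log2 fold change of the 9 genes was -0.08, and that of all tested genes -0.02. The changes were of moderate size, the largest being a 1.63-fold decrease. ERG was listed at 0 counts in all 6 libraries, so its level lay below the floor, while its relative FLI1 was detected in every library.

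**Figure D1:**
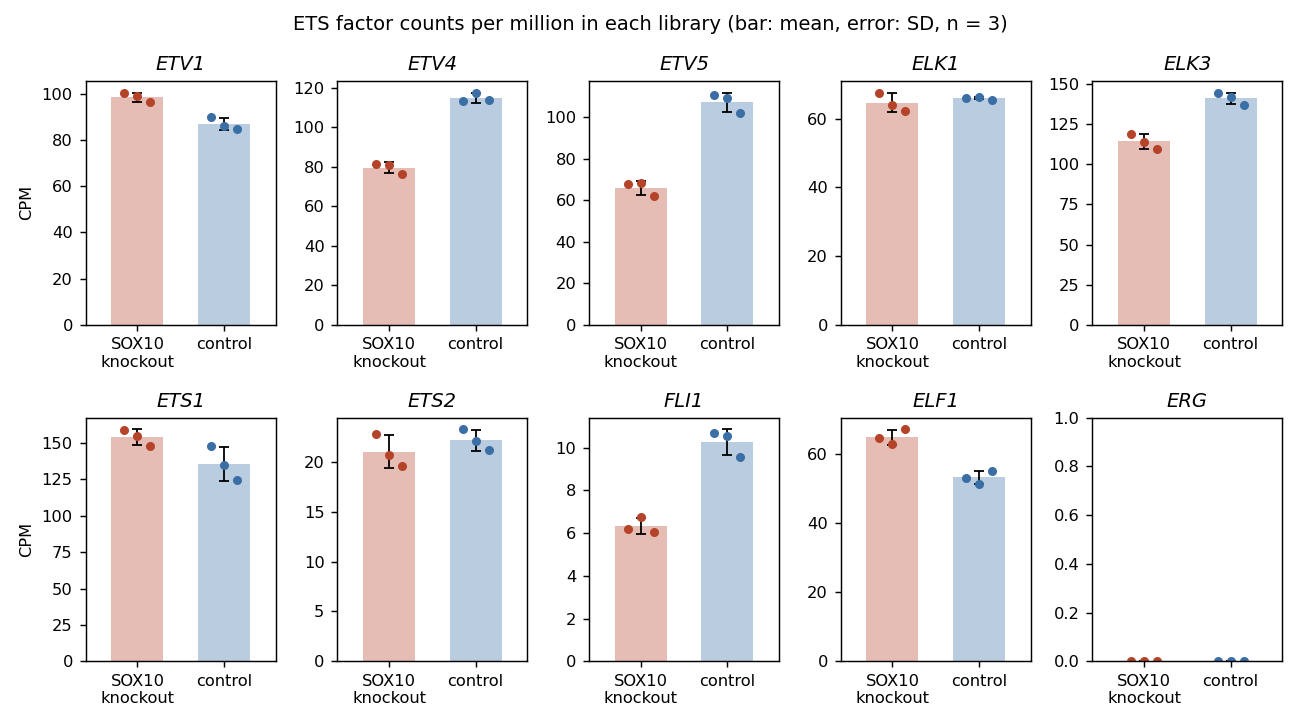
CPM of the 10 ETS factors in SOX10 knockout (left, red) and control (right, blue) libraries; points are libraries, bars means and error bars SD (n = 3), each panel with its own scale. ETV4, ETV5, ELK3 and FLI1 sit lower in every knockout library than in any control library, ELF1, ETV1 and ETS1 sit higher, and ERG is at 0.

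Within the PEA3 group, ETV4 and ETV5 fell while ETV1 did not. ETV5 (ENSG00000244405; GRCh38 chromosome 3, 186046308 to 186110318, minus strand) had 67.8, 68.0 and 61.8 CPM in knockout libraries, against 110.6, 109 and 102 CPM in control libraries. The groups did not overlap, and the highest knockout library lay well under the lowest control library. The level in knockout libraries was 61.5% of that in control libraries, a log2 fold change of -0.70 (SE 0.07, 95% interval -0.85 to -0.55, edgeR quasi-likelihood adjusted p = 7.64e-05).

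ETV4 (ENSG00000175832; chromosome 17, 43527844 to 43579620, minus strand) had 81.4, 80.8 and 76.5 CPM in knockout libraries, against 113, 117 and 114 CPM in control libraries. Again every knockout library was below every control library. The log2 fold change was -0.53 (SE 0.06, interval -0.66 to -0.40, edgeR adjusted p = 1.74e-04), a level of 69.4% of control.

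ETV1 (ENSG00000006468; chromosome 7, 13891228 to 13991425, minus strand) moved the other way by a small amount. It had 100.4, 99.2 and 96.6 CPM in knockout libraries, against 89.9, 86.3 and 84.7 CPM in control libraries. All knockout libraries were above all control libraries, with a log2 fold change of 0.18 (SE 0.06, interval 0.05 to 0.31, edgeR adjusted p = 0.0412). This call was lost when any of the 6 libraries was left out (log2 fold change 0.16 to 0.22, adjusted p from 0.0509 without control replicate 1 to 0.165 without control replicate 2) and without a filter on low counts (adjusted p = 0.102). ETV1 passed in 6 of 13 alternative fits, among them DESeq2 (adjusted p = 0.0383) and limma-voom (adjusted p = 0.0408).

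The split inside the group is seen without any scaling in the ratios of read counts within a library. There were 0.810, 0.814 and 0.792 ETV4 reads per ETV1 read in knockout libraries, against 1.26, 1.36 and 1.34 in control libraries. For ETV5 the ratio to ETV1 was 0.675, 0.686 and 0.640 in knockout libraries, against 1.23, 1.26 and 1.20 in control libraries. ETV1 thus had fewer reads than either relative in each control library and more than either in each knockout library. The ratio of ETV5 to ETV4 was 0.828 ± 0.0175 in knockout libraries and 0.934 ± 0.0408 in control libraries, a log2 difference of -0.17, also with no overlap. The summed reads of the 3 genes were 249.5, 248 and 235 CPM in knockout libraries, against 314, 313 and 300.1 CPM in control libraries, a log2 difference of -0.34. Each of the 7 ratios computed, and the sum, gave p = 0.1 in an exact two-sided permutation test over the 20 assignments, which is the smallest p that 3 against 3 libraries allow. The ratios of ETV4 and ETV5 to ETV1, and of FLI1 to ETS1, had to separate. Their genes already lay apart in opposite directions, so these tests add no support.

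**Figure D2:**
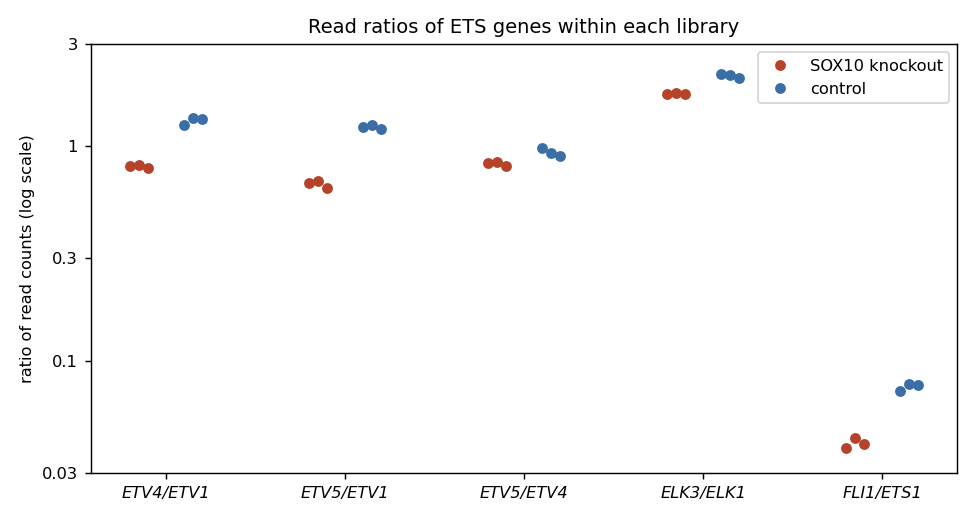
Ratios of read counts between ETS genes within each library on a log axis, SOX10 knockout left (red) and control right (blue) of each label, 1 point per library. The ratio of ETV4 to ETV1 lies between 0.792 and 0.814 in knockout libraries and between 1.26 and 1.36 in control libraries, on opposite sides of 1, and no pair of groups overlaps.

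Both PEA3 genes that fell overlap other tested genes. ETV5 shares sequence with DGKG, a diacylglycerol kinase gene on the same strand, which averaged 27.8 ± 0.841 CPM in knockout libraries and 25.1 ± 2.36 CPM in control libraries (log2 fold change 0.15, edgeR adjusted p = 0.219). ETV4 overlaps DHX8, an RNA helicase gene on the opposite strand, which averaged 137 ± 9.71 CPM in knockout libraries and 163 ± 12.1 CPM in control libraries (log2 fold change -0.25, edgeR adjusted p = 0.0436). Whether the counting used strand is unstated in the labels, so reads of ETV4 and DHX8 may not be fully separated.

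RefSeq promoter windows (GRCh38.p14, 250 bases before to 50 after a start) were given for 6 of the 10 factors: ETS2, ETV1, ELK3, ELK1, ERG and ELF1. The windows were searched on both strands for the octamers bound by CIC, TGAATGAA and TGAATGGA, for GGAAGT and CCGGAAGT (ETS), ACAAAG and ACAATG (SOX), TGANTCA (AP-1), CACGTG (E-box), TGACGTCA (CRE) and the CArG box of SRF. A single CIC octamer was found, in ETV1, and it is shown because ETV1 is the only PEA3 gene with a window. ETV4 and ETV5 could not be searched, so the octamer does not set ETV1 apart from them. The octamer lay 125 to 118 bases before the outermost of the 6 RefSeq starts of ETV1. The 250 bases before that start follow, at chr7:13991426-13991675 on the minus strand, with matches to the searched motifs in capitals.
ETV1 promoter: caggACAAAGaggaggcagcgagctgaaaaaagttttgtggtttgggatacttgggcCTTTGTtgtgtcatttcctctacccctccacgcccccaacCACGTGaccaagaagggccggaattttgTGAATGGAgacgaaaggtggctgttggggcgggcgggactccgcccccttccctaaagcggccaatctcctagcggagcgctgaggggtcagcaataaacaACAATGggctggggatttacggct
From left to right the capitals mark ACAAAG, the same motif on the other strand, CACGTG, TGAATGGA and ACAATG, and none overlaps another. Among 35116 RefSeq windows of 300 bases, 1.03% held TGAATGGA, 1.65% TGAATGAA, 16.1% ACAAAG, 10.8% ACAATG and 7.26% CACGTG. These shares are per window, while a window of ETV1 was searched for each of its 6 starts. A match is a description of letters and not a site of binding.

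Among the ternary complex factors, ELK3 fell, ELK1 did not pass the test and ELK4 lay above control without passing. ELK3, known also as NET, represses SRF target genes until ERK phosphorylates it (ENSG00000111145; chromosome 12, 96194382 to 96269835, plus strand). It had 119, 114 and 109.8 CPM in knockout libraries, against 144, 142 and 137 CPM in control libraries. The groups did not overlap, and the log2 fold change was -0.30 (SE 0.06, interval -0.44 to -0.17, edgeR adjusted p = 0.00489). It passed in all 13 alternative fits, with adjusted p up to 0.0409.

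ELK1 (ENSG00000126767; chromosome X, 47635521 to 47650604, minus strand), an activator of SRF targets, had 67.6, 64.1 and 62.2 CPM in knockout libraries, against 66.1, 66.2 and 65.6 CPM in control libraries. The groups overlapped, with a log2 fold change of -0.03 and an interval of -0.16 to 0.10 (edgeR adjusted p = 0.762). There were 1.77 ± 0.00903 ELK3 reads per ELK1 read in knockout libraries and 2.14 ± 0.0451 in control libraries, without overlap. ELK4 averaged 174 ± 16.4 CPM in knockout libraries and 146 ± 11.3 CPM in control libraries (log2 fold change 0.26, interval 0.06 to 0.46, edgeR adjusted p = 0.0582).

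The letters GGAAGT were found in windows of ELK3, ETS2 and ETV1, for ELK3 in the one before its inner start, within the gene. The letters stood 149 to 144 and 36 to 31 bases before that start, at chr12:96255248-96255497 on the plus strand, and 22.8% of all windows held them. The sequence is shown because ELK3 is the factor with a RefSeq window that fell.
ELK3 inner promoter: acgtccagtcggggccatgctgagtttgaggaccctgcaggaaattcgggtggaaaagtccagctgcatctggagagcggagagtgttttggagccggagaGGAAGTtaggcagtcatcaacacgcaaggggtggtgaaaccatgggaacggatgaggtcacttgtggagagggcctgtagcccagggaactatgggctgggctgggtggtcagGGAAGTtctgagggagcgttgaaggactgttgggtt
No CArG box was found in the windows of the 22 ETS family genes, of 28, that were matched, and 1.29% of all windows held it.

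FLI1 and ETS1 are neighbours on chromosome 11 and differed in what happened to them. FLI1 (ENSG00000151702; 128686535 to 128813267, plus strand) had 6.20, 6.76 and 6.06 CPM in knockout libraries, against 10.7, 10.5 and 9.58 CPM in control libraries. Every knockout library was below every control library, at 61.7% of the control level, a log2 fold change of -0.70 (SE 0.08, interval -0.89 to -0.50, edgeR adjusted p = 3.72e-04). ETS1 (ENSG00000134954; 128458761 to 128587558, minus strand), an activator of protease and integrin genes, lies on the other side of a 99.0 kb gap. It had 159, 155 and 148 CPM in knockout libraries, against 148, 135 and 124 CPM in control libraries.

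The lowest knockout value of ETS1 was just above the highest control value, and its log2 fold change of 0.18 did not pass (interval 0.01 to 0.35, edgeR adjusted p = 0.108). It passed without control replicate 1 (log2 fold change 0.26, adjusted p = 0.0409). FLI1 had 0.0412 ± 0.00229 reads per ETS1 read in knockout libraries and 0.0758 ± 0.00311 in control libraries, without overlap. The antisense transcript SENCR, which overlaps FLI1, was low, at 0.323 CPM in knockout libraries and 0.445 CPM in control libraries (edgeR adjusted p = 0.242).

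The paired locus on chromosome 21 holds ERG and ETS2, 144 kb apart. ETS2 (ENSG00000157557; 38805307 to 38824955, plus strand) had 22.8, 20.7 and 19.5 CPM in knockout libraries, against 23.2, 22.1 and 21.1 CPM in control libraries. The groups overlapped, with a log2 fold change of -0.08 and an interval of -0.26 to 0.10 (edgeR adjusted p = 0.535). ERG (ENSG00000157554; 38380027 to 38661780, minus strand) was at 0, as given above.

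FLI1 and ERG are abundant in blood and endothelial cells, so markers of both were read beside them. Of 10 blood cell markers, GATA1, an erythroid factor gene, had 0 counts in all libraries, and PTPRC, the pan-leukocyte antigen CD45, stood at or below 0.0638 CPM in knockout libraries and 0.135 CPM in control libraries. The summed level of this list was 1.67 to 2.56 CPM in knockout libraries and 11.2 to 14.5 CPM in control libraries. LYZ, the lysozyme gene, made up most of it, with 1.64 CPM in knockout and 12.1 CPM in control libraries (log2 fold change -2.89, edgeR adjusted p = 4.38e-06). Of 10 endothelial markers 7 were tested: CDH5 and PECAM1 rose, to 1.96 and 1.13 CPM in knockout libraries, against 0.431 and 0.293 CPM in control libraries, and ROBO4 fell, to 5.65 CPM in knockout libraries against 8.42 CPM in control libraries. Of the 7 tested endothelial markers 42.9% passed the threshold, against 28.0% of all tested genes. The endothelial sum was 12.1 to 12.7 CPM in knockout libraries and 13.1 to 13.3 CPM in control libraries. The part of the blood cell or endothelial list in the FLI1 result was not tested.

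Markers of other cell types moved as well. Over all tested genes 28.0% passed the threshold, 14.0% higher and 14.0% lower. Of 9 fibroblast markers, all tested, 6 rose and 1 fell, and their sum was 27.6 to 29.9 CPM in knockout libraries and 16.7 to 19.8 CPM in control libraries. Those with the smallest p were POSTN (1.99 CPM in knockout and 0.120 CPM in control libraries), FAP (2.11 CPM in knockout and 0.353 CPM in control libraries) and COL3A1 (0.326 CPM in knockout and 0.0229 CPM in control libraries). The control mean of COL3A1 lay under the floor. PDGFRA, the one that fell, averaged 0.939 CPM in knockout and 1.54 CPM in control libraries. Of 6 tested epithelial markers 4 rose and 1 fell, with a sum of 231 to 244 CPM in knockout libraries and 174 to 182 CPM in control libraries, most of it KRT18, a keratin gene (216 CPM in knockout and 155 CPM in control libraries). The one that fell was KRT14, another keratin gene, at 0.249 CPM in knockout libraries and 7.16 CPM in control libraries (log2 fold change -4.83, edgeR adjusted p = 1.82e-07). The melanocytic genes CDH19 and S100B fell to 3.21 and 1.28 CPM in knockout libraries, against 100.4 and 32.9 CPM in control libraries. The part of these lists in the results on ETS factors was not tested.

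ELF1 rose by more than ETV1. ELF1 (ENSG00000120690; chromosome 13, 40932028 to 41061440, minus strand), which binds GGAA sites at promoters of widely used genes, had 64.6, 62.9 and 67.2 CPM in knockout libraries, against 53.0, 51.4 and 55.2 CPM in control libraries. The groups did not overlap, and the log2 fold change was 0.29 (SE 0.06, interval 0.15 to 0.42, edgeR adjusted p = 0.00770). Without control replicate 2 the call was lost (log2 fold change 0.26, adjusted p = 0.0563). WBP4, which overlaps ELF1 on the opposite strand, averaged 33.3 CPM in knockout libraries and 37.3 CPM in control libraries (log2 fold change -0.16, edgeR adjusted p = 0.0715).

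**Figure D3:**
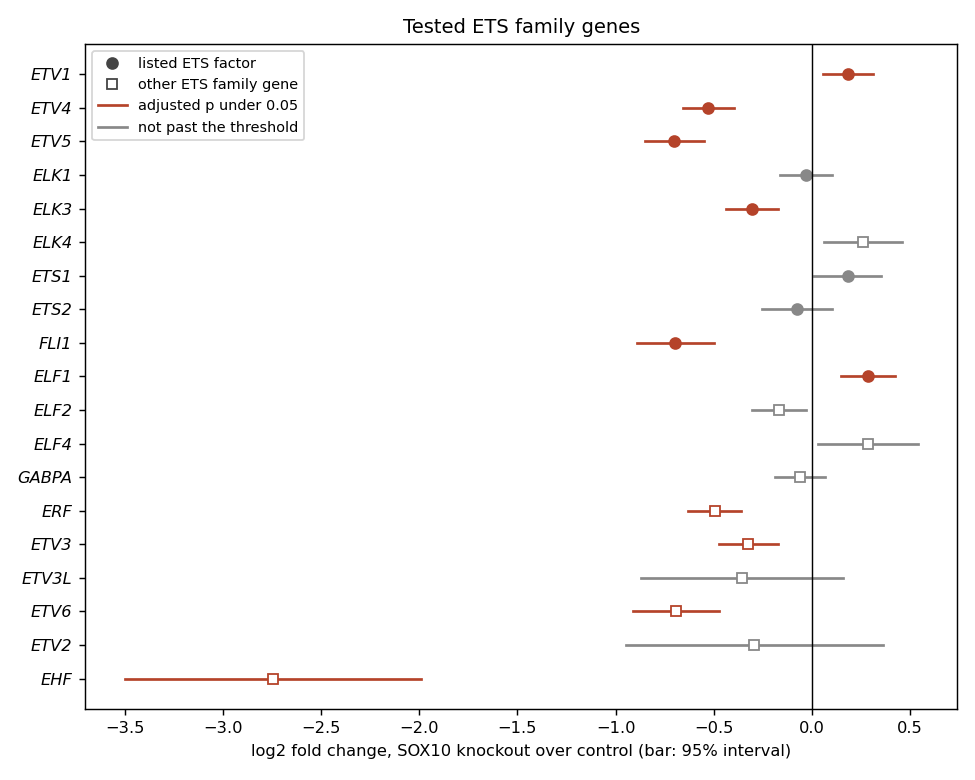
Log2 fold changes of SOX10 knockout over control with 95% intervals for the 19 tested ETS family genes, the listed factors as filled circles and the others as open squares, red where the adjusted p was under 0.05. ETV5, FLI1 and ETV6 lie near -0.70, ELF1 is the highest of those past the threshold at 0.29, and EHF, at under 1 CPM, is the lowest at -2.75.

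The other 18 genes of the family were read as context. Of these, 10 were tested, and 4 fell: ERF, EHF, ETV6 and ETV3. That was 40.0% of the 10, where 28.0% of all tested genes passed the threshold and 14.0% were lower. None of the 10 rose in edgeR (2 at an unadjusted p under 0.05), against 1 in DESeq2 and 0 in limma-voom. The median log2 fold change of the 10 was -0.31. ERF is a repressor that ERK drives out of the nucleus, and it averaged 47.4 ± 1.73 CPM in knockout libraries and 66.8 ± 1.14 CPM in control libraries (log2 fold change -0.50, SE 0.06, edgeR adjusted p = 2.98e-04). ETV3, a related repressor, averaged 77.3 ± 3.82 CPM in knockout libraries and 96.8 ± 4.61 CPM in control libraries (log2 fold change -0.32, edgeR adjusted p = 0.00618).

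ETV6, a repressor known from leukaemia fusions, averaged 16.9 ± 1.16 CPM in knockout libraries and 27.3 ± 2.91 CPM in control libraries (log2 fold change -0.69, edgeR adjusted p = 7.33e-04). EHF, an epithelial ETS factor, was low, with 7, 5 and 13 counts in knockout libraries and 50, 57 and 55 counts in control libraries (log2 fold change -2.75, SE 0.33, edgeR adjusted p = 3.42e-04). GABPA, which works with GABPB1 at many promoters, averaged 86.4 ± 1.87 CPM in knockout libraries and 90.1 ± 2.28 CPM in control libraries (edgeR adjusted p = 0.490). Of the 8 genes not tested, FEV and SPIC had 0 counts in all libraries, and ELF5 had 3, 7 and 2 counts in knockout libraries and 0 in control libraries.

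Levels of different ETS genes were compared per kilobase of exon. In knockout libraries the order, in CPM per kb, was ELK3 at 24.6 ± 0.995, ETV4 at 22.1 ± 0.734, ETS1 at 21.5 ± 0.748, ELK1 at 19.0 ± 0.800, ELF1 at 15.0 ± 0.496, ETV5 at 11.4 ± 0.604, ETV1 at 10.3 ± 0.202, ETS2 at 4.57 ± 0.358 and FLI1 at 0.775 ± 0.0452. In control libraries ETV4 came first at 31.8 ± 0.670, before ELK3 at 30.3 ± 0.781, ELK1 at 19.4 ± 0.105, ETS1 at 19.0 ± 1.62, ETV5 at 18.5 ± 0.798, ELF1 at 12.3 ± 0.439, ETV1 at 9.05 ± 0.277, ETS2 at 4.82 ± 0.230 and FLI1 at 1.26 ± 0.0725. Neighbours in these orders overlapped between libraries only for ETV4 and ETS1 among the knockout libraries, and for ELK1 and ETS1, and ETS1 and ETV5, among the control libraries. ETV4 and ETV5 thus stood lower in the order in knockout libraries, and ELF1 stood above ETV5 there and below it in control libraries.

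As a share of the summed per-kilobase level of the 19 tested ETS genes, ETV4 held 11.25% ± 0.160 in knockout libraries and 14.3% ± 0.421 in control libraries, and ETV5 held 5.79% ± 0.184 in knockout libraries and 8.32% ± 0.169 in control libraries. The shares of ETS1 and ELF1 were higher, at 10.98% ± 0.0713 and 7.64% ± 0.457 in knockout libraries, against 8.54% ± 0.538 and 5.54% ± 0.312 in control libraries. The sum itself was 202, 196 and 190 CPM per kb in knockout libraries, against 226, 223 and 216 CPM per kb in control libraries. The 9 tested factors held 65.6% to 66.0% of it in knockout libraries and 65.9% to 66.0% in control libraries. The exon lengths pool all annotated transcripts of a gene, so a change of isoform would alter these levels.

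**Figure D4:**
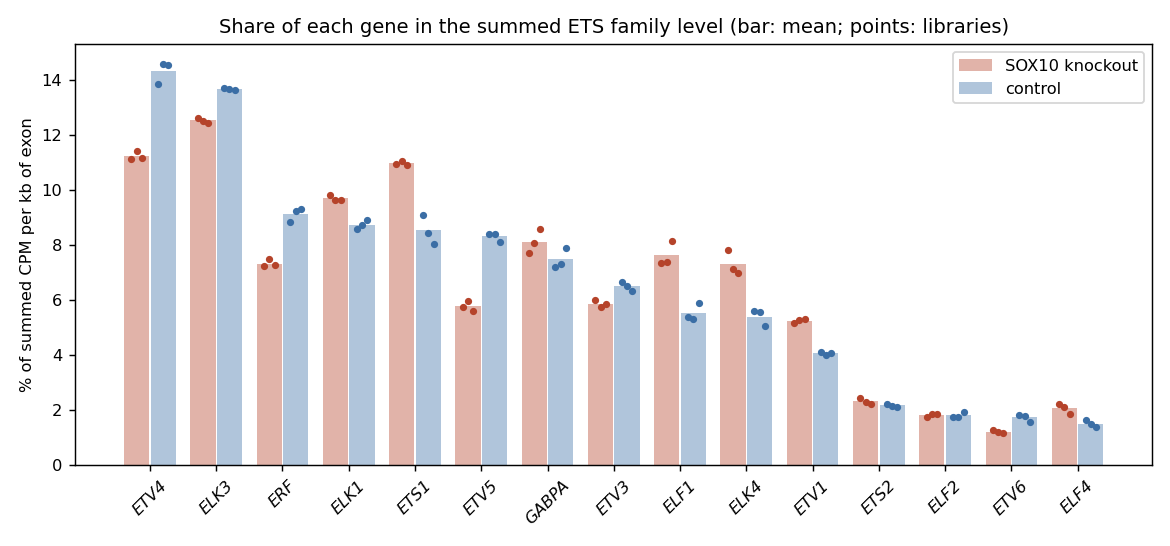
Share of the summed CPM per kilobase of exon held by each tested ETS gene with at least 1% in control libraries, SOX10 knockout left (red) and control right (blue); bars are means and points libraries (n = 3). ETV4 is at 11.25% in knockout libraries, against 14.3% in control libraries, while ETS1 is at 10.98% in knockout libraries, against 8.54% in control libraries.

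The genes with the most similar pattern were sought for ETV5, FLI1 and ETV4, the factors with the largest changes past the threshold. The measure was the root mean square difference of centred log2 CPM over the 6 libraries, among 10119 other protein-coding genes whose mean reached 5 CPM. For ETV4 the nearest was ERF, at 0.0175, then PDE1C, a phosphodiesterase gene, and NEMP1, a nuclear envelope protein gene, at 0.0243 and 0.0257. There were 1.69, 1.67 and 1.69 ETV4 reads per ERF read in knockout libraries, against 1.72, 1.73 and 1.71 in control libraries. For ETV5 the nearest were TCF12, a helix-loop-helix factor gene (0.0312), OBSL1 (0.0321) and NFKB1, an NF-kappaB subunit gene (0.0330). For FLI1 they were PLTP (0.0378), ETV5 (0.0391) and TCF12 (0.0406).

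Regulators and partners of ETS factors were counted as a list of 25 genes, all tested: 9 fell and 2 rose, with a median log2 fold change of -0.17. Of this list 44.0% passed the threshold, against 28.0% of all tested genes. With total counts as the only scaling 5 fell, and 3 fell without control replicate 1, without control replicate 2 or without knockout replicate 2, and 5 without knockout replicate 3. CIC, the repressor of PEA3 genes, averaged 31.6 ± 4.19 CPM in knockout libraries and 35.2 ± 4.42 CPM in control libraries and did not pass (log2 fold change -0.16, interval -0.43 to 0.12, edgeR adjusted p = 0.398). ATXN1, whose protein binds CIC, rose to 38.4 ± 2.36 CPM in knockout libraries, against 16.0 ± 1.25 CPM in control libraries (log2 fold change 1.27, edgeR adjusted p = 7.22e-06). Its relative ATXN1L averaged 38.9 CPM in knockout libraries and 46.3 CPM in control libraries (adjusted p = 0.138). COP1, part of a ligase that degrades PEA3 proteins, averaged 75.2 CPM in knockout libraries and 75.0 CPM in control libraries.

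The RUNX genes, whose proteins bind DNA together with ETS1, were split. RUNX2 rose to 10.4 ± 1.13 CPM in knockout libraries, against 4.08 ± 0.329 CPM in control libraries (log2 fold change 1.35, edgeR adjusted p = 3.15e-05). RUNX3 fell to 27.4 ± 2.90 CPM in knockout libraries, against 42.8 ± 3.45 CPM in control libraries (log2 fold change -0.64, edgeR adjusted p = 0.00118), and RUNX1 and their shared partner CBFB also fell (log2 fold changes -0.34 and -0.19). Other partners that fell by small amounts were DAXX, PAX3 and SRF, with log2 fold changes of -0.32, -0.39 and -0.24. The kinase gene MAPK3, which encodes ERK1, fell by 0.30 on the log2 scale (adjusted p = 0.0202). GABPB1 averaged 45.5 CPM in knockout libraries and 51.1 CPM in control libraries (adjusted p = 0.209).

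Genes known as outputs of ERK signalling, 20 in number and all tested, did not move one way: 8 rose and 6 fell, with a median log2 fold change of 0.14. Called genes made up 28.0% of all tested genes (14.0% higher and 14.0% lower), a smaller share than in this list. DUSP6, an ERK phosphatase and ETS target, fell to 105.5 ± 3.91 CPM in knockout libraries, against 145 ± 3.52 CPM in control libraries (log2 fold change -0.46, SE 0.06, edgeR adjusted p = 4.31e-04). There were 0.621, 0.641 and 0.610 ETV5 reads per DUSP6 read in knockout libraries, against 0.743, 0.768 and 0.705 in control libraries, so ETV5 was lower relative to DUSP6 too. SPRY2, SPRY4 and IER3 also fell, by 1.46, 1.53 and 0.76 on the log2 scale. HMGA2, DUSP5 and PHLDA1 rose, with log2 fold changes of 1.56, 0.78 and 0.54.

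Of 12 tested targets of SRF and the ternary complex factors, 4 fell and 2 rose (median -0.15). The share called among all tested genes was smaller, at 28.0% (14.0% higher and 14.0% lower). EGR3 fell to 0.826 ± 0.232 CPM in knockout libraries, against 11.0 ± 1.66 CPM in control libraries (log2 fold change -3.73, SE 0.20, edgeR adjusted p = 2.32e-06). NR4A1, a nuclear receptor of the immediate early class, fell to 3.26 ± 0.116 CPM in knockout libraries, against 24.6 ± 1.97 CPM in control libraries (log2 fold change -2.91, edgeR adjusted p = 1.48e-07). FOS and FOSB fell by 1.71 and 1.13 on the log2 scale, and EGR1 averaged 4.74 ± 1.08 CPM in knockout libraries and 6.64 ± 0.634 CPM in control libraries (adjusted p = 0.0508). CCN1 and BTG2 rose, with log2 fold changes of 1.00 and 0.41.

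Of 20 tested genes with well studied ETS sites in their promoters, 12 rose and 5 fell, with a median log2 fold change of 0.84. Of this list 85.0% passed the threshold, against 28.0% of all tested genes. The list was chosen with earlier results of these data known, so its share is no test of ETS activity. It shares CDH5, TEK and TIE1 with the endothelial markers and PLAUR with the ERK outputs. The matrix metalloproteinase genes MMP3 and MMP1 rose, with log2 fold changes of 5.04 and 4.89. The VEGF receptor genes KDR and FLT1 fell by 5.13 and 3.03 on the log2 scale, and ITGB3, an integrin gene, had a log2 fold change of -2.49. Several of the genes named overlap the span of another tested gene, introns included. Among them are SOX10, KRT18, DUSP6, HMGA2, SPRY4, EGR3, FOSB, ATXN1, RUNX2, RUNX3, PAX3, ITGB3, ELK4 and GABPA. Their counts are uncertain only so far as exons overlap, which was not examined for these genes.

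**Figure D5:**
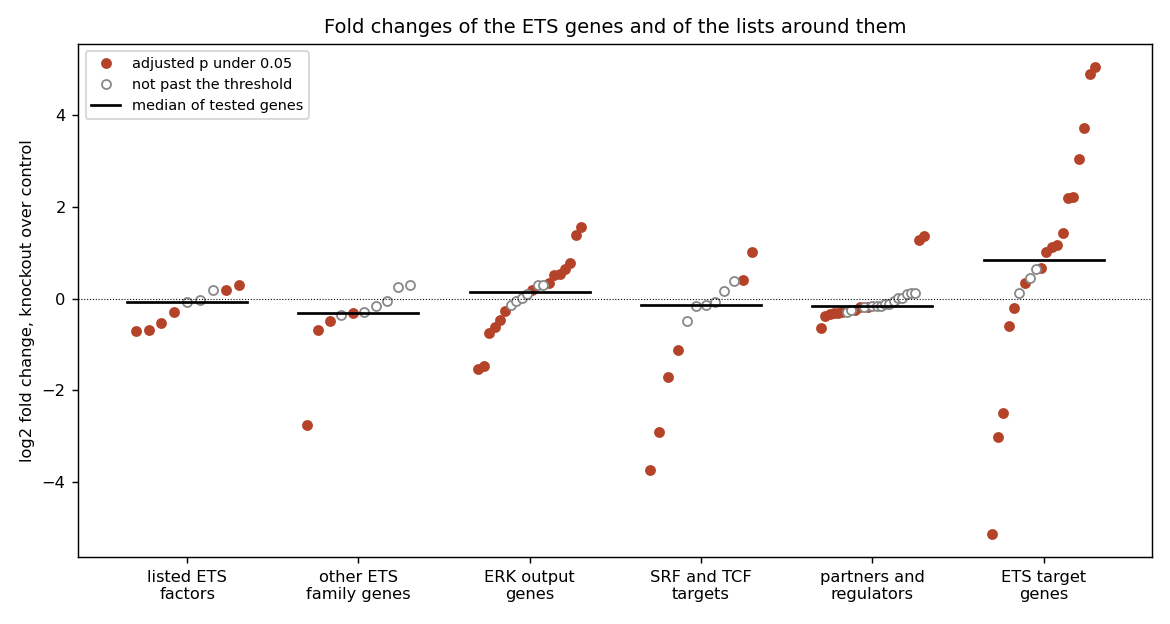
Log2 fold changes of SOX10 knockout over control for the tested genes of the ETS factors and of 5 lists around them, ordered by value within each list; red points had an adjusted p under 0.05 and black lines are medians. The listed ETS factors stay between -0.70 and 0.29, while ETS targets reach from -5.13 (KDR) to 5.04 (MMP3). The SRF and TCF targets reach from -3.73 (EGR3) to 1.00 (CCN1).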

How the data were processed

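mRNA was sequenced from 6 A375 libraries, 3 per group, grouped by their titles. The values the authors deposited are whole-number counts of reads for each gene; HISAT2, HTSeq and hg38 are named in the submitters' processing notes, without versions, and the library kit keeps strand, per the labels' protocols. The labels state neither the annotation release nor the strand setting. Symbols, positions and exon lengths came from the reference tables and GENCODE 29 (GRCh38).

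From the deposited counts, edgeR 4.0.16 (R 4.3.3) kept 19263 genes with filterByExpr, scaled by TMM and ran the two-sided quasi-likelihood test of knockout over control with no covariate, with Benjamini-Hochberg adjustment over all tested genes and a threshold of 0.05. The test was first run on simulated counts. DESeq2 1.42.0 and limma-voom 3.58.1 were alternatives, with other scalings and filters, the replicate block and each library left out. Tables were made in Python 3.11.15 with pandas 2.3.3.

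The members and gene lists were chosen with earlier results of these data known. Named by rule were the 10 factors, SOX10, the other ETS genes past the threshold and the most abundant one, a fixed panel (DUSP6, SPRY2, SPRY4, FOS, EGR1, CIC, SRF, GABPB1 and RUNX2), up to 3 members of each list per direction by smallest p, the 3 most similar genes of 3 factors and the nearest tested neighbours. ATXN1L, COP1, RUNX1, CBFB, MAPK3, GABPA, FEV, SPIC, ELF5, GATA1, PTPRC, TYR and the genes overlapping the factors were named after their values were seen. Some genes that the rule names are not reported here. The summed PEA3 level and the read ratios were tested by exact permutation of log2 values over all 20 assignments.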

Additional observations from a re-analysis of the deposited data

How the results depend on the processing

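Across 13 alternative fits ETV4, ETV5, ELK3, FLI1 and SOX10 stayed past the threshold in the same direction, and ETS2 and ELK1 never passed it. Leaving out each library in turn gave log2 fold changes of 0.16 to 0.22 for ETV1, 0.26 to 0.32 for ELF1 and 0.12 to 0.26 for ETS1, with the lost and gained calls given above. It gave 0 to 2 higher factors (0 without control replicate 2, 1 without control replicate 3 or any knockout replicate), 0 to 2 higher genes among the other ETS genes (2 without knockout replicate 3), 3 to 11 lower partners and regulators, and 1794 to 2958 lower genes over all tested (1794 without knockout replicate 2). Without a filter on low counts ETV1 did not pass (log2 fold change 0.18, edgeR adjusted p = 0.102), 1 factor was higher, and 2 other ETS genes were higher; DESeq2 called 1 of these higher. Scaled by total counts, 5 partners and regulators fell. The cause of these shifts was not tested.

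Same-numbered libraries deviated together for replicates 1 and 3 (correlations of 0.302 and 0.314 over 19263 genes) but not for replicate 2 (-0.00438). Deviations were taken from the group means, so that of replicate 2 is set by those of replicates 1 and 3. The low value for replicate 2 therefore cannot speak against pairing. The labels tie no number to a shared culture or day, so the numbers were not taken to pair the libraries. Knockout replicate 2 correlated best with control replicate 3 (0.0379), and knockout replicates 1 and 3 with their own number. Knockout 3 with control 1 and knockout 1 with control 3 gave -0.284 and -0.332. The main fit has no term for such shared deviations, so its p-values do not account for them. Whether the libraries were paired was not tested. With the replicate block 4637 genes were higher and 5176 lower, 2 other ETS genes were higher, 7 SRF and TCF targets and 16 partners and regulators fell, and ETS1 passed the threshold with a log2 fold change of 0.18 (edgeR adjusted p = 1.69e-05). ETV1 stayed past the threshold in that fit, with a log2 fold change of 0.18 (edgeR adjusted p = 1.24e-05). Depth limits statements on ERG and on the 8 untested ETS genes, which lay near or under the floor, and the calls on EHF, which rest on few reads.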

Other observations

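The nearest tested protein-coding genes on either side of the 10 factors showed no common direction. Of 16 such neighbours that were not themselves listed factors, 3 were higher and 2 lower in knockout libraries by edgeR, with a median log2 fold change of 0.02. Over all tested genes 14.0% were higher and 14.0% lower, so the neighbours were called about as often as any gene. Beside ETV5, TRA2B averaged 339 ± 20.6 CPM in knockout libraries and 377 ± 25.6 CPM in control libraries (edgeR adjusted p = 0.173), and TBCCD1 averaged 12.6 ± 0.324 CPM in knockout libraries and 14.3 ± 0.439 CPM in control libraries (adjusted p = 0.0799). Beside ETV4, DUSP3, a phosphatase gene 187 kb away, rose to 79.5 ± 0.929 CPM in knockout libraries, against 48.7 ± 1.56 CPM in control libraries (log2 fold change 0.71, edgeR adjusted p = 2.90e-05), opposite to ETV4. AGMO, the nearest on one side of ETV1, at 1210 kb, fell to 9.86 ± 0.719 CPM in knockout libraries, against 38.5 ± 1.76 CPM in control libraries (log2 fold change -1.96, edgeR adjusted p = 5.02e-07). KCNJ15, a potassium channel gene 72.7 kb from the silent ERG, rose to 0.887 ± 0.0403 CPM in knockout libraries, against 0.0777 ± 0.0312 CPM in control libraries (log2 fold change 3.48, edgeR adjusted p = 5.33e-05). CDK17, 8.43 kb from ELK3, rose slightly (log2 fold change 0.19, edgeR adjusted p = 0.0460), and KBTBD6, 66.1 kb from ELF1, fell (log2 fold change -0.36, edgeR adjusted p = 0.00699).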
